A study of Mus musculus with 12 samples.

Results

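A set of 10 genes of monocytes and plasmacytoid dendritic cells were followed in mouse hematopoietic stem and progenitor cells (HSPCs): Ccr2, F13a1, Ly86, Ms4a6c, Ctss, Csf1r, Irf8, Klf4, Ly6c2 and Siglech. They were chosen by name with earlier results of these data known, so the counts below are descriptive. All 10 are among the 24014 gene symbols of the authors' deposited table. For a symbol with several transcripts the most abundant one on average was used, which applied to 3 of the 10 genes. The 12 RNA-seq libraries are from C57BL/6 mice, 3 in each of the genotype groups labelled WT, Smc3, Npm1 and Double. The Smc3 protein is part of the cohesin ring, Npm1 is a nucleolar chaperone often mutated in acute myeloid leukaemia, and the labels name no allele, no Cre driver and no sex. All groups, WT included, had 7 intraperitoneal doses of pIpC, a double-stranded RNA mimic, at 1 mg/mL on alternate days from an age of 4 to 6 weeks. The cells were taken 4 to 6 weeks after treatment by red cell lysis and lineage depletion, which leaves a mixture of progenitors and whatever mature cells escape the depletion. Poly(A) RNA was sequenced, and no label states that libraries of the same group are separate mice, so p-values measure the spread between libraries. That spread may be technical in part, while Smc3 and Double each hold libraries with and without Y-linked reads, which come from different animals.

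Monocytes and dendritic cells arise from shared bone marrow progenitors that depend on the transcription factor Irf8, and Klf4 acts further along the monocyte branch. Classical monocytes carry Ly6c2 and the chemokine receptor Ccr2, which lets them leave the marrow, and they need signals through Csf1r, the receptor for Csf1 and Il34. Plasmacytoid dendritic cells sense nucleic acids through endosomal Toll-like receptors, secrete type I interferon and, in mice, carry the lectin Siglech on their surface.

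The data take 2 forms. For each gene the authors deposited a mean of normalized counts over the 6 libraries of a comparison and a log2 fold change with its standard error, which had been drawn towards 0 for noisy genes (a moderated estimate). A gene was called at the authors' adjusted p under 0.05. The tables hold no values per library, but for genes with few reads the 3 means fix the whole reads of each library, as described under the processing, and Siglech is the only one of the 10 genes for which this was possible. Depth was inferred from the size factor, the scale of each library, and the deposited means, not from read totals. It was 10.24 to 22.03 M reads in WT, 19.8 to 51.6 in Smc3, 10.6 to 33.1 in Npm1 and 27.8 to 35.4 in Double. Kit, the receptor that marks HSPCs, had a mean of 6073 to 8121 normalized counts in the 3 comparisons of the authors' deposited table. The labels do not say which allele of Smc3 or Npm1 was used, and neither gene was called in its own comparison, at -0.02 ± 0.11 for Smc3 and 0.22 ± 0.16 for Npm1 in the authors' deposited table, so these values do not check the labels.

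Of the 10 genes, 4 (Ccr2, F13a1, Ms4a6c and Siglech) were higher than WT in both Smc3 and Double HSPCs, and the 250 bases before the transcription start of each are shown here because these genes moved together. The sequences are RefSeq's on GRCm38.p6, 5′ to 3′ on the strand of the gene, and capitals mark every match on either strand to 1 of 5 motifs of blood transcription factors. They lie at chr9:124101933-124102182 on the plus strand (Ccr2), chr13:37049214-37049463 on the minus strand (F13a1), chr19:11469118-11469367 on the plus strand (Ms4a6c) and chr7:55767934-55768183 on the plus strand (Siglech).
Ccr2: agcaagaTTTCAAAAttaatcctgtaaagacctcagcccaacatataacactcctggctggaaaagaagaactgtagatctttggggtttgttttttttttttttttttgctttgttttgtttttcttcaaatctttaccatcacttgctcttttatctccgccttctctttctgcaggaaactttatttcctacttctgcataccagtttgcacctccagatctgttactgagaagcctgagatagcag
F13a1: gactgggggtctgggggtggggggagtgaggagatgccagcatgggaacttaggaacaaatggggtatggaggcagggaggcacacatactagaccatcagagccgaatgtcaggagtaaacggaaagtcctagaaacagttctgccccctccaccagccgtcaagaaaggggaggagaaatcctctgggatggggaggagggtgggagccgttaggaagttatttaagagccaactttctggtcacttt
Ms4a6c: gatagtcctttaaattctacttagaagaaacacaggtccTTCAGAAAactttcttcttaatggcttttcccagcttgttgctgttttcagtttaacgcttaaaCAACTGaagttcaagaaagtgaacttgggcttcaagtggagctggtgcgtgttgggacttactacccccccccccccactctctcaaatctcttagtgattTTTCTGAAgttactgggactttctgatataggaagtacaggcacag
Siglech: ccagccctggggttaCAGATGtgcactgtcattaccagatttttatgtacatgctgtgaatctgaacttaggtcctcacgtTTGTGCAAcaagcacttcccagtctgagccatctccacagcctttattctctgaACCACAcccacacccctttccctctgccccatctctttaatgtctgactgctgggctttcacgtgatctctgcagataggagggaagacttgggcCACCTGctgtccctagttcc

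The motifs searched were a PU.1 core (GAGGAA), an ETS-IRF composite element (GGAA and GAAA separated by 2 bases), a C/EBP site (TTNCNNAA), a RUNX site (TGTGGT) and an E-box (CAGNTG), and the PU.1 core can overlap the composite element. Of the 10 genes, 9 had a promoter in the RefSeq table. The C/EBP letters stood in 4 of these 9, namely Ccr2, Ms4a6c, Ly6c2 and Siglech, against 36.9% of 27025 mouse promoters of the same length. In the printed windows they begin 243 bases before the start in Ccr2, 211 and 46 bases before it in Ms4a6c and 169 bases before it in Siglech. The E-box letters stood in 5 of 9 (44.5% of promoters), the PU.1 core in 2 of 9 (23.1%), the RUNX letters in 2 of 9 (14.2%) and the composite element in 0 of 9 (2.38%). The F13a1 window holds no match to any of the 5, as do those of Ly86 and Irf8. The annotated start differs from that of the counted transcript by 75 bases in F13a1 and 42 in Siglech. These matches describe letters in a window and say nothing about binding.

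The first comparison asked how these genes stood in Smc3 HSPCs. Of the 10 genes, 4 were called, all higher, where 7.94% of the 12749 genes tested were called higher and 6.6% lower. All 10 fold changes lay above 0, with a median of 0.54 on the log2 scale against a median of -0.002 over all genes tested, and 8 of 10 had an unadjusted p under 0.05. The chemokine receptor gene Ccr2 rose by 0.81 ± 0.19 (standard error, 3 against 3 libraries, adjusted p = 0.0009025), which is 1.76 times WT, in the authors' deposited table. Siglech, the plasmacytoid dendritic lectin, rose by 0.95 ± 0.25 (adjusted p = 0.00306), as given in the authors' deposited table. F13a1, the A chain of coagulation factor XIII that monocytes make, rose by 0.68 ± 0.19 (adjusted p = 0.00753), as given in the authors' deposited table. Ms4a6c, a membrane-spanning protein of myeloid cells, rose by 0.57 ± 0.19 (adjusted p = 0.0267), as given in the authors' deposited table. Close to the threshold lay Ctss, the lysosomal cathepsin S that trims the invariant chain of MHC class II, at 0.56 ± 0.21 (adjusted p = 0.0535), as given in the authors' deposited table.

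In Npm1 HSPCs none of the 10 genes was called by the authors' DESeq2 test, and 0 of 10 had an unadjusted p under 0.05, where 9.1% of 12323 genes were called higher and 9.0% lower. All 10 fold changes lay below 0, from -0.39 for Ctss to -0.11 for Siglech in the authors' deposited table, with a median of -0.22 against 0.01 over all genes tested. With standard errors of 0.21 to 0.24, each of them lies within 2 standard errors of 0. Ctss stood at -0.39 ± 0.22 (adjusted p = 0.18) and Ms4a6c at -0.36 ± 0.21 (adjusted p = 0.2), as given in the authors' deposited table.

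In Double HSPCs 7 of 10 genes were called, all higher, where 8.87% of 13216 genes were called higher and 9.81% lower. F13a1 rose most, by 1.04 ± 0.14 (adjusted p = 8.48e-12), to 2.05 times WT, in the authors' deposited table. Siglech rose by 0.94 ± 0.26 (adjusted p = 0.00429) and Ly6c2, the surface antigen of classical monocytes, by 0.80 ± 0.21 (adjusted p = 0.00236), as given in the authors' deposited table. Ccr2 rose by 0.75 ± 0.14 (adjusted p = 3.95e-06) and Ms4a6c by 0.66 ± 0.15 (adjusted p = 0.000187), as given in the authors' deposited table. Ly86, the MD-1 partner of the Toll-like protein Cd180, rose by 0.63 ± 0.19 (adjusted p = 0.0108), and Ctss by 0.56 ± 0.20 (adjusted p = 0.0342), as given in the authors' deposited table. The call of Ctss was lost when p was adjusted over every gene with a p (adjusted p = 0.0502). The median of the 10 was 0.64 against 0.01 over all genes tested.

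**Figure D1:**
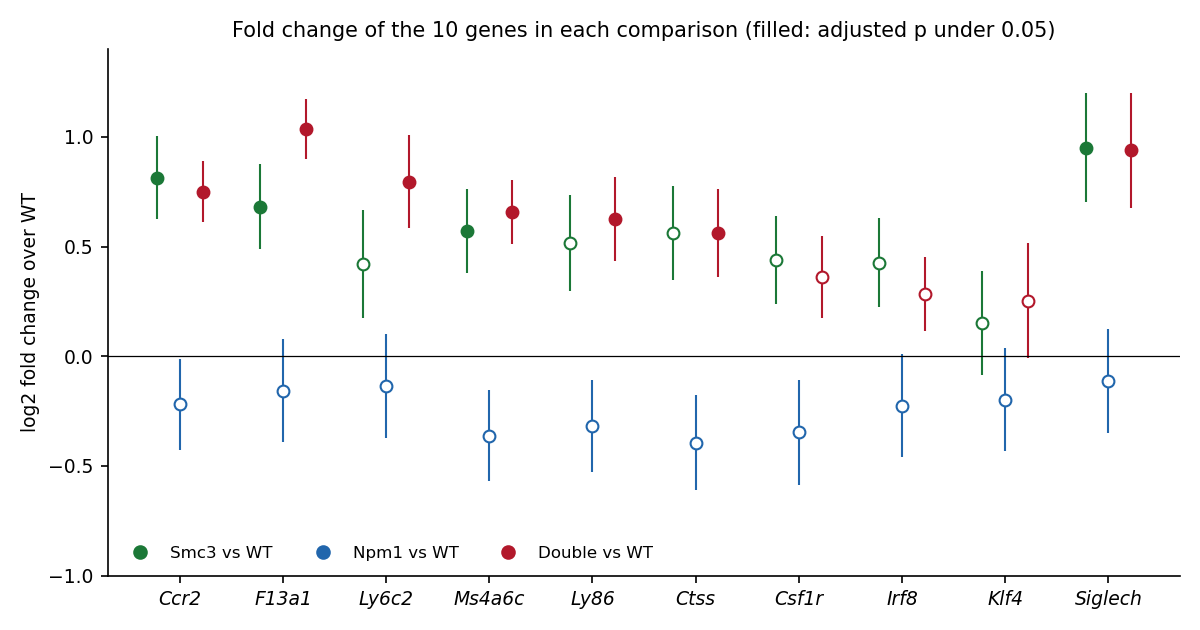
Log2 fold change over WT (vertical axis) of the 10 genes in the Smc3, Npm1 and Double comparisons, from the authors' deposited table, with bars of 1 standard error of the authors' fit. Filled points are called at adjusted p under 0.05: 4 in Smc3, 0 in Npm1 and 7 in Double. All 10 Npm1 points lie below 0 and all 10 points of the other comparisons above it.

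Csf1r and the transcription factors Irf8 and Klf4 were called in none of the 3 comparisons. Csf1r stood at 0.44 ± 0.20 in Smc3 (adjusted p = 0.117), -0.35 ± 0.24 in Npm1 (adjusted p = 0.295) and 0.36 ± 0.19 in Double (adjusted p = 0.174), as given in the authors' deposited table. Irf8 stood at 0.43 ± 0.20 (adjusted p = 0.135), -0.22 ± 0.24 (adjusted p = 0.516) and 0.28 ± 0.17 (adjusted p = 0.259) in the same order in the authors' deposited table. Klf4 had the smallest fold changes of the group in Smc3 and Double, 0.15 ± 0.24 and 0.25 ± 0.26, and stood at -0.20 ± 0.24 in Npm1, in the authors' deposited table. A missed call does not show that these genes were equal to WT, given standard errors of 0.17 to 0.26 in Smc3 and Double.

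Levels for each group follow from the deposited mean and fold change, set to the scale of the Smc3 comparison by the WT size factors, and they carry the moderation of the fold change. F13a1 in WT was fitted at 4671 to 5191 normalized counts over the 3 comparisons, against 8325 in Smc3, 4190 in Npm1 and 10319 in Double. Ccr2 was fitted at 1373 to 1524 in WT, 2680 in Smc3, 1180 in Npm1 and 2428 in Double. Ly6c2 was fitted at 1919 to 2384 in WT, 3197 in Smc3, 1749 in Npm1 and 3853 in Double. In each of these genes the order was Npm1 lowest, WT next and Smc3 and Double above. Irf8 followed the same order over a narrower span, from 3738 in Npm1 through 4369 to 5032 in WT and 5928 in Double to 6767 in Smc3, and Klf4 ran from 644 in Npm1 through 739 to 898 in WT to 989 in Smc3 and 1071 in Double. Neither Irf8 nor Klf4 was called in a comparison with WT, nor in a difference between groups by the z test, which counts the WT libraries' variance in each comparison. With that share removed, Irf8 differed between Smc3 and Npm1 by 0.65 (adjusted p = 0.0130). The share was assumed rather than measured, and in simulated data this variant gave 6.76% false calls against 0% for the z test. It recovered 96.5% of the simulated differences, where the z test recovered 76%. The simulated data were built with that same share, so they do not test the assumption.

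The 3 comparisons share the WT libraries, so the groups were set against each other by the difference of their log2 fold changes, with a normal z test adjusted over all genes. Between Double and Npm1, 7 of 10 genes differed, all higher in Double, where 4.09% of 18341 genes were called higher. F13a1 differed by 1.19 ± 0.27 (adjusted p = 0.00119), Ms4a6c by 1.02 ± 0.25 (adjusted p = 0.00348) and Ccr2 by 0.97 ± 0.25 (adjusted p = 0.00535). Siglech, Ctss, Ly86 and Ly6c2 differed by 0.93 to 1.05. Between Smc3 and Npm1, 6 of 10 genes differed, all higher in Smc3, where 7.57% of 18280 genes were called higher. Ccr2 differed by 1.03 ± 0.28 (adjusted p = 0.00501) and Siglech by 1.06 ± 0.34 (adjusted p = 0.0198), and Ctss, Ms4a6c, F13a1 and Ly86 followed at 0.84 to 0.96. Ly6c2, at 0.56 ± 0.34 (adjusted p = 0.315), was not called there. At a stricter threshold of 0.01, 3 genes remained above it for Double minus Npm1 (F13a1, Ms4a6c and Ccr2) and 1 for Smc3 minus Npm1 (Ccr2).

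Double and Smc3 differed in 0 of 10 genes by the z test, and 0 of 10 had an unadjusted p under 0.05, where 0.262% of 18727 genes were called in either direction. The differences ran from -0.14 for Irf8 to 0.37 for Ly6c2. F13a1 stood 0.35 ± 0.24 above Smc3, with a 95% interval of -0.11 to 0.82, and Siglech 0.01 below, with an interval of -0.72 to 0.69. The intervals of the 10 genes reach from -0.72 to 1.01, so the test does not show that Double and Smc3 are alike. Double was also set against the sum of the Smc3 and Npm1 fold changes. By the z test 0 of 10 genes departed from that sum, 0 of 10 had an unadjusted p under 0.05, and of 18145 genes 0.0% were called and 265 had an unadjusted p under 0.05. All 10 departures lay above 0, from 0.08 for Irf8 to 0.51 for F13a1, with standard errors of 0.31 to 0.43.

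**Figure D2:**
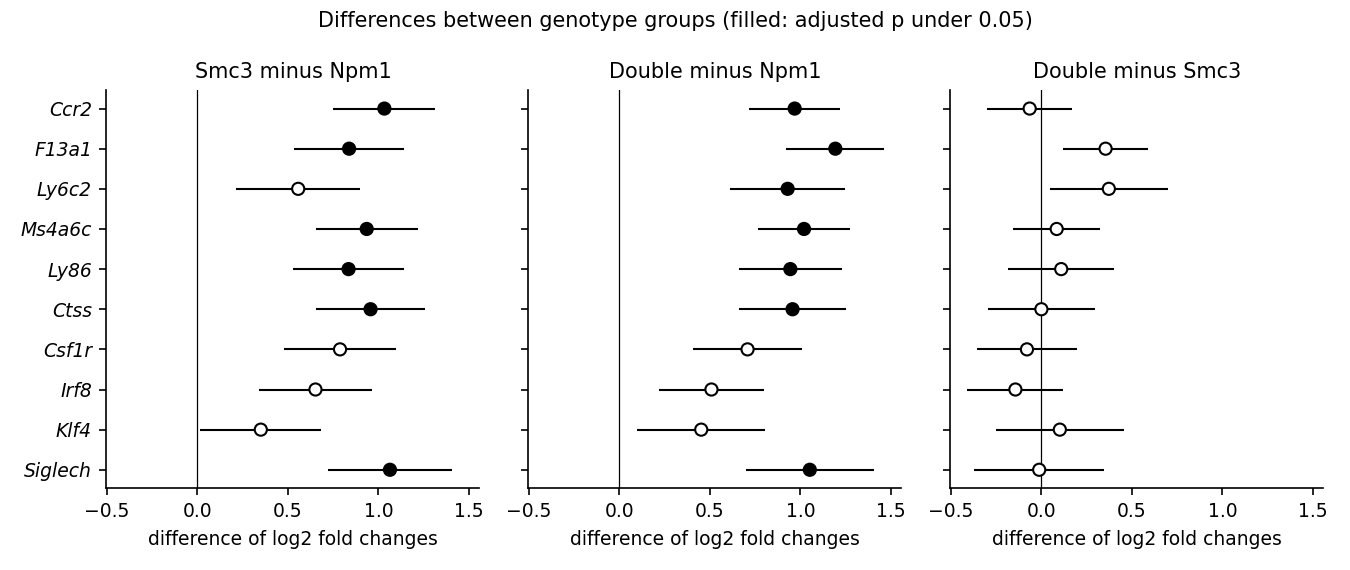
Differences of log2 fold changes (horizontal axis) between genotype groups for the 10 genes, with bars of 1 standard error, the root of the summed squared standard errors. Filled points are called at adjusted p under 0.05: 6 for Smc3 minus Npm1, 7 for Double minus Npm1 and 0 for Double minus Smc3.

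Siglech gives the only view of single libraries among the 10 genes. Libraries are numbered within a group only to tell them apart, since the means show the group of a library and not its replicate label. Siglech stood at 84.7, 28.8 and 27.7 normalized reads in WT libraries 1 to 3, from 42, 29 and 19 whole reads. It stood at 102.9, 125.3 and 334.5 in Smc3, at 27.0, 59.8 and 31.4 in Npm1 and at 263.8, 176.3 and 70.3 in Double. All 3 Smc3 libraries lay above all 3 WT libraries, the Npm1 libraries overlapped WT, and Double overlapped WT because its library 3 lay below WT library 1. The mean was 47.1 ± 32.6 (SD, n = 3) in WT, 187.6 ± 127.7 in Smc3, 39.4 ± 17.8 in Npm1 and 170.1 ± 96.9 in Double. The ratio of means to WT was 3.99 in Smc3, 0.837 in Npm1 and 3.61 in Double, where the moderated folds of the authors' deposited table were 1.94, 0.925 and 1.92. A two-sided exact permutation test on these means gave p = 0.1 for Smc3, the smallest that 3 against 3 libraries allow, p = 0.8 for Npm1 and p = 0.2 for Double.

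Single libraries weigh on those ratios. Leaving out 1 library at a time, the ratio ran from 2.42 to 6.64 in Smc3 and from 2.62 to 6.02 in Double. In Npm1 it ran from 0.62 to 1.39, and the direction turned without WT library 1. That library, at an inferred 10.24 to 10.8 M reads the shallowest of the WT libraries, also stood apart in genes of other cells: the 6 B cell genes with recovered reads summed to 413.5 normalized reads in it against 110.6 and 118.3 in the other WT libraries, and the 10 macrophage genes to 540.6 against 167.4 and 192.9. Its 6 recovered monocyte genes summed to 135.1 against 64.6 and 69.9. Smc3 library 1 had a like macrophage sum of 587.6 against 130.1 and 183.4 in the other Smc3 libraries. The 6 T and NK cell genes summed to 379.3 in Smc3 library 3, the library highest in Siglech, against 150.2 and 169.4 in the other Smc3 libraries. In Double they summed to 310.3, 408.6 and 85.2 in libraries 1 to 3, lowest in the library lowest in Siglech. The highest sum, in Double library 2, was not in the library highest in Siglech, Double library 1. In WT the sums were 155.3, 179 and 168.9 in libraries 1 to 3, lowest in the library highest in Siglech. In Npm1 they were 107.8, 202.1 and 54.7, highest in the library highest in Siglech. The part of these cells in the Siglech values was not tested, and in bulk RNA more cells of a type and more RNA per cell cannot be told apart.

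The sexes were also not balanced. The Y-linked genes Uty and Kdm5d had reads in Smc3 libraries 1 and 2 and Double libraries 2 and 3, at 674 to 1068 normalized reads each, and 0 or 1 read in each of the other 8 libraries. The 4 libraries with Y-linked reads all belong to the groups in which the genes were higher, so for the other 9 genes sex and genotype cannot be told apart in the deposited tables. For Siglech the libraries without Y-linked reads were the highest of their group, 334.5 in Smc3 and 263.8 in Double. These are 7.11 and 5.60 times the WT mean from 1 library each, and the part of sex was not tested.

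**Figure D3:**
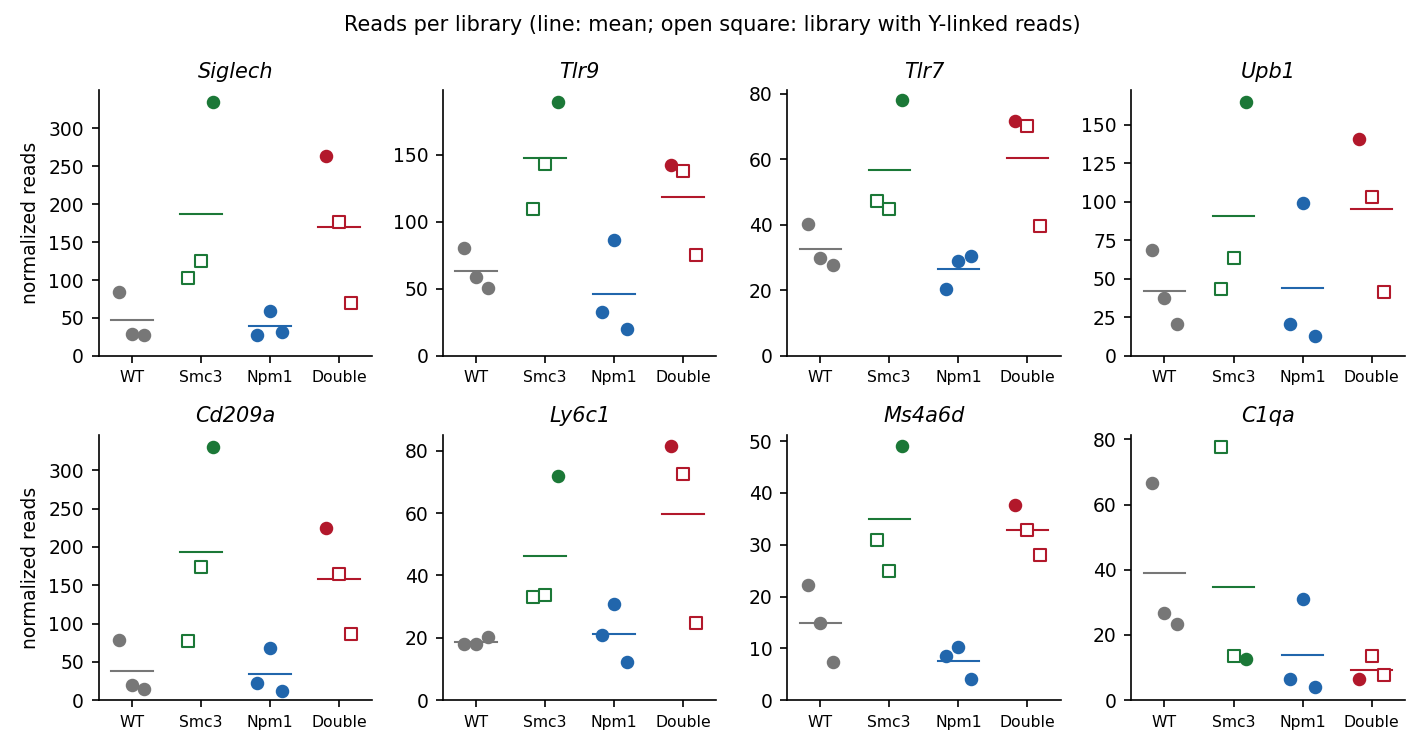
Normalized reads per library (vertical axis, from 0) of Siglech and 7 genes of the lists, by genotype group, with a line at the mean of 3 libraries. Open squares are the 4 libraries with Y-linked reads. The Smc3 libraries of Siglech, at 102.9 to 334.5, lie above the WT libraries at 27.7 to 84.7, while C1qa, a macrophage complement gene, lies at 6.46 to 13.5 in Double against 23.3 to 66.6 in WT.

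Other genes of plasmacytoid dendritic cells did not move as a block with Siglech. Of 15 tested on that list, 1 was called higher and 1 lower in Smc3, and 4 higher and 1 lower in Double, and 2 of 14 were called higher and 1 lower in Npm1. Over all genes tested, 7.94% were called higher and 6.6% lower in Smc3, 9.1% and 9.0% in Npm1, and 8.87% and 9.81% in Double. Tlr9, the endosomal sensor of CpG DNA, rose by 0.90 ± 0.22 in Smc3 (adjusted p = 0.0015) and by 0.66 ± 0.24 in Double (adjusted p = 0.0345), as given in the authors' deposited table. Its recovered reads stood at 51.0 to 80.7 in WT, 109.8 to 189.6 in Smc3, 20.3 to 86.6 in Npm1 and 75.5 to 142.8 in Double, so that Smc3 did not overlap WT and Double did. Tcf4, the factor that sets plasmacytoid dendritic identity, rose by 0.30 ± 0.09 in Double (adjusted p = 0.00804) and by 0.26 ± 0.09 in Npm1 (adjusted p = 0.0292), as given in the authors' deposited table. Irf7, the factor behind the interferon response of these cells, went the other way, falling by 0.55 ± 0.16 in Smc3, 0.74 ± 0.22 in Npm1 and 1.33 ± 0.22 in Double in the authors' deposited table. Bst2, a surface marker of these cells that interferon also induces, was at -0.01 ± 0.17 in Smc3 and -0.003 ± 0.15 in Double in the authors' deposited table. The more restricted markers were scarce: Klk1 had 0 to 1.99 normalized reads and Cox6a2 8.73 to 18.2 in the WT libraries. The 6 recovered genes of the list summed to 112.1 to 219.9 in WT, 220.3 to 495 in Smc3, 76.0 to 224.7 in Npm1 and 169.8 to 387.8 in Double.

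Monocyte genes outside the 10 were called in the same direction within each comparison, though most were not called. In Smc3, 7 of 24 tested were called higher and 0 lower, with a median of 0.40, and in Double 9 of 24 were called higher and 0 lower, with a median of 0.45. In Npm1, 0 of 21 were called higher and 3 lower, with a median of -0.35. All genes tested gave 7.94% higher and 6.6% lower in Smc3, 8.87% and 9.81% in Double, and 9.1% and 9.0% in Npm1. Clec12a, an inhibitory lectin of myeloid cells, rose by 0.77 ± 0.19 in Smc3 (adjusted p = 0.00186) and by 0.80 ± 0.15 in Double (adjusted p = 5.73e-06), as given in the authors' deposited table. S100a4, a calcium-binding protein of maturing myeloid cells, rose by 0.95 ± 0.23 in Double in the authors' deposited table. The Fc receptor Fcgr3 rose by 0.69 ± 0.20 in Smc3 and 0.55 ± 0.19 in Double and fell by 0.73 ± 0.20 in Npm1 in the authors' deposited table. Lyz2 and Cd14, which mark mature monocytes, were not called, Lyz2 standing at -0.04 ± 0.24 in Smc3 and -0.05 ± 0.26 in Double in the authors' deposited table. Summed over the 6 recovered monocyte genes, libraries stood at 64.6 to 135.1 in WT, 113.2 to 194.9 in Smc3 and 103.4 to 176.3 in Double. Npm1 libraries stood at 44.6 to 101, and each genotype group overlapped WT.

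Lists for neighbouring lineages gave the following counts, to be read against the share over all genes tested. That share was 7.94% higher and 6.6% lower in Smc3, 9.1% and 9.0% in Npm1, and 8.87% and 9.81% in Double. A single call among 7 to 11 genes lies near such shares. Of 15 conventional dendritic cell genes tested in Smc3, 5 were called higher and 0 lower, of 14 in Npm1 0 were called, and of 16 in Double 4 were called higher and 1 lower. Cd209a, a lectin of monocyte-related dendritic cells, rose by 0.99 ± 0.26 in Double (adjusted p = 0.00247), as given in the authors' deposited table, and its recovered reads were 86.5 to 224.5 in Double against 14.6 to 78.7 in WT. Macrophage genes were called higher in 0 of 13 in Smc3 and 0 of 13 in Double, where 3 were lower, with C1qa falling by 0.92 ± 0.26 (adjusted p = 0.00523), as given in the authors' deposited table. The neutrophil list held 17 genes, of which 10 were tested in Smc3, with 4 called higher (Ctsg, Mpo, Elane and the factor Gfi1), and 8 in Double, with 5 called higher. The other 9 in Double, among them the late granule genes Camp, Ltf and Mmp9, have no adjusted p, with log2 fold changes of -0.68 to -0.50 as listed by the authors' deposited table. These 9 could not be called in either direction, and Camp, at a mean of 813 normalized counts, has no unadjusted p there. Basophil and mast cell genes were called higher in 8 of 8 in Smc3 and 2 of 8 in Double. Erythroid genes were called lower in 6 of 9 in Smc3 and 7 of 9 in Double. In Npm1, 6 of 8 basophil and mast cell genes, 2 of 9 neutrophil genes and 1 of 11 macrophage genes were called lower and none of these lists held a higher call, while 2 of 9 erythroid genes were higher and 3 lower. T and NK cell genes were called higher in 3 of 9 in Smc3 and 2 of 9 in Double and lower in 1 of 9 in Npm1, and of 7 B cell genes 0 were called in Smc3 and 1 was lower in Double. Stem and progenitor genes were called higher in 3 of 8 in Smc3 and 2 of 8 in Double and lower in 1 of 7 in Npm1, and Pdgfrb was the only stromal gene called, in Smc3 and Double. The part of these lineages in the values of the 10 genes was not tested.

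**Figure D4:**
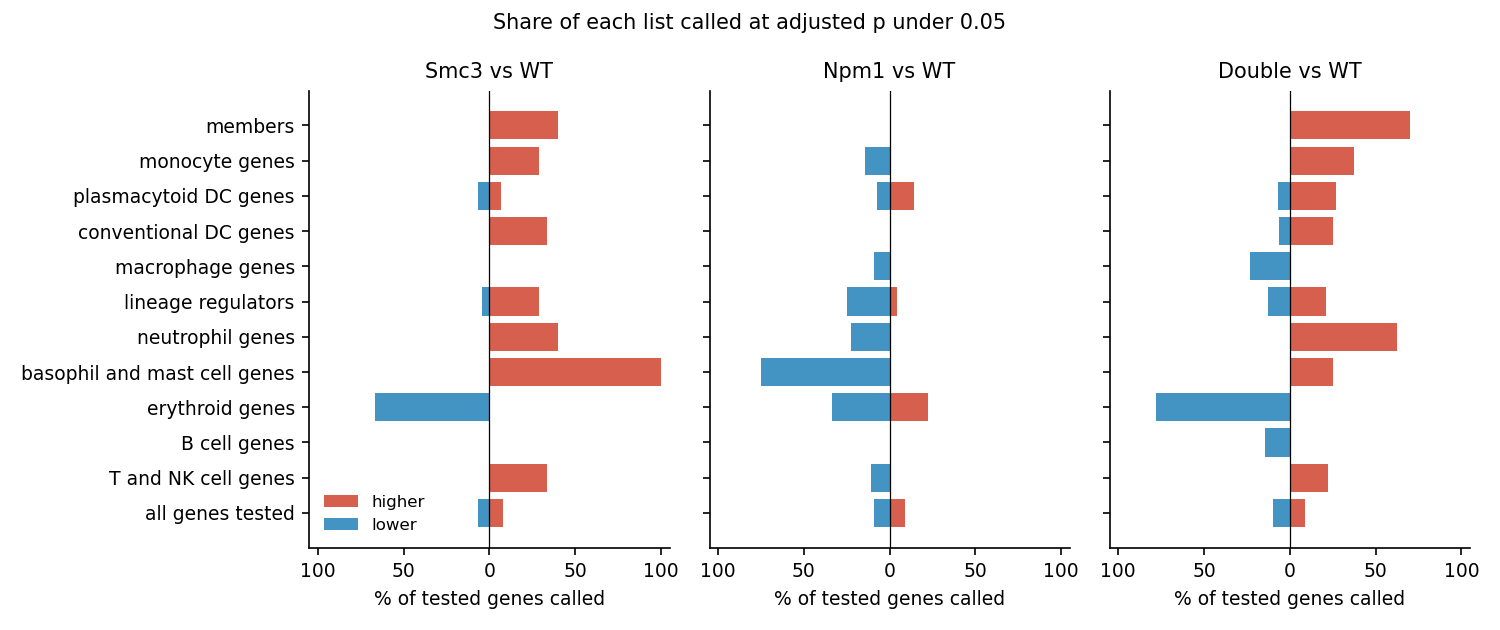
Share of the tested genes of each list called higher (to the right) or lower (to the left) than WT, in percent, in each comparison of the authors' deposited table. The 10 genes stand in the top row and all genes tested in the bottom row, where 7.94% were higher in Smc3, 9.1% in Npm1 and 8.87% in Double. Lower were 6.6%, 9.0% and 9.81% in the same order.

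The ligands, partners and regulators of the 10 genes split by comparison. Csf1, the ligand of Csf1r, rose by 0.79 ± 0.13 in Smc3 (adjusted p = 1.11e-06), fell by 0.81 ± 0.18 in Npm1 (adjusted p = 0.00024) and stood at -0.03 ± 0.21 in Double in the authors' deposited table. Cd180, which pairs with the Ly86 protein, rose by 0.80 ± 0.19 in Smc3 (adjusted p = 0.00123) and by 0.59 ± 0.16 in Double (adjusted p = 0.00284), the comparisons in which Ly86 stood at 0.52 and 0.63, in the authors' deposited table. Tyrobp, the DAP12 adaptor through which Siglech signals, rose by 0.81 ± 0.18 in Smc3 (adjusted p = 0.000538) and 0.60 ± 0.19 in Double (adjusted p = 0.0152) and stood at -0.54 ± 0.21 in Npm1 (adjusted p = 0.0504), as given in the authors' deposited table. The Ccr2 ligand Ccl2 had a mean of 4.33 to 10.1 normalized counts, and the ligands Ccl7 and Ccl12 were listed at 0, in the authors' deposited table. Over the partner list 4 of 10 tested genes were called higher and 0 lower in Smc3, 0 higher and 3 lower of 10 in Npm1, and 2 higher and 0 lower of 11 in Double. The shares of all genes tested were 7.94% higher and 6.6% lower in Smc3, 9.1% and 9.0% in Npm1, and 8.87% and 9.81% in Double.

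Among regulators of the monocyte and dendritic lineages, 7 of 24 tested genes were called higher and 1 lower in Smc3, 1 higher and 6 lower in Npm1, and 5 higher and 3 lower in Double. For all genes tested, shares higher and lower were 7.94% and 6.6% in Smc3, 9.1% and 9.0% in Npm1, and 8.87% and 9.81% in Double. Csf2rb, the shared chain of the GM-CSF, interleukin 3 and interleukin 5 receptors, rose by 1.03 ± 0.14 in Smc3 (adjusted p = 2.92e-10) and fell by 0.77 ± 0.19 in Npm1 (adjusted p = 0.00191), as given in the authors' deposited table. The myeloid factor Cebpa rose by 0.60 ± 0.13 in Smc3 (adjusted p = 0.000578) and stood at 0.15 ± 0.19 in Double in the authors' deposited table. Gfi1, a repressor that favours the neutrophil branch over the monocyte branch, rose by 0.66 ± 0.17 in Smc3 and 0.66 ± 0.19 in Double in the authors' deposited table. In Npm1 the immediate early factor Egr1 fell by 1.25 ± 0.15 (adjusted p = 3e-14) and Cebpb by 1.04 ± 0.21 (adjusted p = 5.9e-05), as given in the authors' deposited table. Spi1, which encodes PU.1, was not called, at 0.38 ± 0.19 in Smc3, -0.47 ± 0.24 in Npm1 and 0.22 ± 0.20 in Double in the authors' deposited table.

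Several of the 10 genes sit beside relatives on the chromosome, and F13a1 and Ly86, of different families, sit beside each other. By RefSeq order F13a1 and Ly86 are adjacent coding genes on chromosome 13, with 0 coding genes between them, and Rreb1 on the far side of Ly86 stood at 0.004 in Smc3 and -0.13 in Double in the authors' deposited table. In the Ms4a cluster of chromosome 19, Ms4a4c rose by 0.87 ± 0.22 in Double (adjusted p = 0.000959) and Ms4a6b by 0.51 ± 0.18 in Smc3 (adjusted p = 0.0406), as given in the authors' deposited table. Of the chemokine receptor genes beside Ccr2 on chromosome 9, Ccr1 stood at 0.63 in Smc3 (adjusted p = 0.0559), -0.53 in Npm1 (adjusted p = 0.0798) and 0.15 in Double (adjusted p = 0.721) in the authors' deposited table. Ccr3 stood at 0.42 in Smc3 (adjusted p = 0.216), at -0.34 in Npm1 with no adjusted p, and at -0.23 in Double (adjusted p = 0.586) in the authors' deposited table. Ly6c1, a near-identical copy of Ly6c2 on chromosome 15, rose by 0.67 ± 0.25 in Smc3 (adjusted p = 0.0478) and 0.84 ± 0.26 in Double (adjusted p = 0.0123), as given in the authors' deposited table, and reads could have been split between the copies. Its recovered reads were 17.9 to 20.4 in WT, 33.3 to 71.9 in Smc3, 12.2 to 30.9 in Npm1 and 24.7 to 81.7 in Double, and neither Smc3 nor Double overlapped WT. Pdgfrb, the coding gene before Csf1r on chromosome 18, rose by 0.78 ± 0.16 in Smc3 (adjusted p = 0.000211) and 0.77 ± 0.17 in Double (adjusted p = 0.000118), as given in the authors' deposited table. Over the 3 coding genes on each side of the 10, without the 10 themselves, 5 of 31 tested were called higher and 3 lower in Smc3, 4 higher and 2 lower of 30 in Npm1, and 7 higher and 3 lower of 32 in Double, where over all genes 7.94% were higher and 6.6% lower in Smc3, 9.1% and 9.0% in Npm1 and 8.87% and 9.81% in Double.

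Family members elsewhere in the genome did not follow as a set. Over 34 relatives tested, 5 were called higher and 2 lower in Smc3, and over 35 in Double the counts were 5 and 2, with medians of 0.16 and 0.03, while of 32 in Npm1 1 was higher and 6 lower. These counts lie beside 7.94% higher and 6.6% lower over all genes in Smc3, 8.87% and 9.81% in Double, and 9.1% and 9.0% in Npm1. Of the cathepsins related to Ctss, Ctsc, which activates granule proteases, rose by 0.66 ± 0.20 in Smc3 and 0.88 ± 0.14 in Double, and Ctsb stood at 0.01 ± 0.12 and -0.02 ± 0.15, in the authors' deposited table. Transcripts of 1 gene could also differ: the second Ms4a6c transcript stood at 0.40 ± 0.19 in Smc3 (adjusted p = 0.133) and at 0.44 ± 0.15 in Double (adjusted p = 0.0276), as given in the authors' deposited table. The second transcripts of F13a1 and Ctss had fold changes within 0.01 of the first.

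The genes whose 3 fold changes lay nearest to the median of the group (0.54, -0.22 and 0.64) among 10240 genes with a mean of at least 50 were Arhgap31, Pik3r6, Hlf, Calhm2 and Rps6ka2, at Euclidean distances of 0.036 to 0.047 log2 units over 3 comparisons that share WT. Of the 10 genes themselves Ly86 lay nearest to that median at 0.10 and Klf4 farthest at 0.55. Hlf, a transcription factor of stem cells, stood at 0.56 in Smc3 (adjusted p = 0.0372), -0.19 in Npm1 (adjusted p = 0.527) and 0.66 in Double (adjusted p = 0.0179), as given in the authors' deposited table.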

How the data were processed

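Reads were aligned with STAR to mouse build mm9 and compared with DESeq2, per the submitters' processing notes. Tool versions were not given in the sources used here, nor was the counting program. Per the file headers, each of the 3 comparisons with WT holds, for 33018 RefSeq transcripts, a mean of counts divided by size factors (a signal, not a raw count). The log2 fold change, its standard error and the Wald score, which is their ratio, were deposited by the authors, as were the p-values and adjusted p-values. The library kit keeps no record of strand, so overlapping genes cannot be told apart. Columns of values per library that were left unused number 0.

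The 10 genes and the 14 gene lists were chosen with earlier results of these data known, so no pattern here is independent support. Genes named are the 10, up to 4 per list with the smallest p in a comparison, Smc3, Npm1, Dock1, Rac2 and the 5 nearest genes; Bst2, Camp, Ccr1, Ccr3, Ltf, Mmp9, Cd14, Cox6a2, Ctsb, Ctsc in Smc3, Ccl2, Ccl7, Ccl12, Klk1, Kit, Lyz2, Ms4a6b, Ms4a4c, Ly6c1, Rreb1, Spi1, Uty and Kdm5d were chosen after their values were seen. Some genes that this rule names are not reported here. Differences used a two-sided normal z test that adds the squared standard errors, with Benjamini-Hochberg adjustment over all genes with a p. It was tested on simulated data before use, with 0% false calls. There it recovered 76% of simulated differences for Double minus Smc3 and 64.5% for Double minus the sum, so it misses some differences.

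A deposited mean is the sum of whole reads, each worth the inverse size factor of its library divided by 6. Size factors came from transcripts holding a single read, and the whole reads of 12 libraries were solved from the 3 means of a gene, for means up to 45 in the Npm1 comparison. Of 150 genes drawn at random with means of 3 to 45, 150 had exactly 1 solution, and 0 had one after a relative shift of 1e-07. Recovered reads are scaled to the WT size factors of the Smc3 comparison. They cover genes of low level only, so no count test across genes was run on them. Promoters are RefSeq's on GRCm38.p6, which is not the build of the tables. Tools were Python 3.11.15, numpy 2.4.6, pandas 2.3.3, scipy 1.17.1 and matplotlib 3.10.9.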

Additional observations from a re-analysis of the deposited data

Results flagged for a closer look

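Of the values reported, 13 were marked because the effect of a genotype differed between groups by the z test on the difference of log2 fold changes, at an adjusted p under 0.05. Between Double and Npm1 these were F13a1 at 1.19, Siglech at 1.05, Ms4a6c at 1.02, Ccr2 at 0.97, Ctss at 0.96, Ly86 at 0.94 and Ly6c2 at 0.93. Between Smc3 and Npm1 they were Siglech at 1.06, Ccr2 at 1.03, Ctss at 0.96, Ms4a6c at 0.94, F13a1 at 0.84 and Ly86 at 0.84. All are higher outside the Npm1 group, and no sample outside these comparisons was used.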

How the results depend on the processing

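No paired analysis was possible because the tables hold no values per library, and for the same reason no replicate could be left out of the authors' fits. The counts of the 10 genes called, in each of the 3 comparisons and 4 differences, stayed within 1.5 times of the reported ones in 96 of 98 recomputed counts. The reported counts in Npm1, in Double minus Smc3 and in Double minus the sum were 0, so these could only rise. A stricter threshold of 0.01 left 3 of 7 for Double minus Npm1 and 1 of 6 for Smc3 minus Npm1. Of single genes, Ctss passed the threshold in Smc3 when p was adjusted over genes with a mean of at least 50 (adjusted p = 0.0491) or after centring on the median gene (0.0480), and lost it in Double when adjusted over every gene (0.0502). Csf1r passed in Double minus Npm1 (0.00751) and Smc3 minus Npm1 (0.00211), and Irf8 in the latter (0.0130), once the WT share of the variance was removed. Removing that assumed share gave, in simulated data, 4.95% false calls for Double minus Npm1 and 6.76% for Smc3 minus Npm1, against 0% otherwise. Simulated differences recovered were 96% against 84.5% by the z test for Double minus Npm1, and 96.5% against 76% for Smc3 minus Npm1. The simulation assumed the same share and so does not test it. Csf1r also passed in Smc3 minus Npm1 over genes with a mean of at least 50 (0.0441). Under that filter Siglech in Npm1 and in the differences with Npm1 had no value, its mean there being 34.3. For the Siglech reads, alternatives chosen after seeing the data gave log2 ratios to WT, leaving out 1 library at a time, of 1.28 to 2.73 in Smc3, 1.39 to 2.59 in Double and -0.69 to 0.48 in Npm1, the last reversing to 0.48 without WT library 1. Low depth bears most on Siglech, with 19 to 42 reads in a WT library; intervals and floors would cover counting error only.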

Other observations

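Recovered reads give values per library for other genes of low level, chosen after their values were seen. No overlap of 3 against 3 libraries gives only p = 0.1 in a two-sided exact permutation test. Wholly above WT in Smc3 lay 1 of 6 recovered T and NK cell genes and 3 of 7 relatives. So did 2 of 5 conventional dendritic cell genes. In Npm1, 1 of 6 T and NK cell genes and 1 of 6 monocyte genes lay wholly below WT. In Double, 3 of 7 relatives lay wholly above WT and 2 of 10 macrophage genes wholly below. Ncr1, an activating receptor of NK cells, stood at 40.3 to 47.7 normalized reads in WT, 84.3 to 145.9 in Smc3, 17.2 to 36.8 in Npm1 and 42.3 to 112.8 in Double, with no overlap with WT in Smc3 or Npm1. In the authors' deposited table it was called in Smc3 (adjusted p = 0.00324) and in neither Npm1 (adjusted p = 0.206) nor Double (adjusted p = 0.0894). Ly96, which encodes MD-2, the Tlr4 partner related to the Ly86 protein, stood at 14.1 to 26.2 in WT, 26.8 to 40.6 in Smc3, 22.7 to 30.2 in Npm1 and 31.4 to 36.4 in Double, and was not called in the authors' deposited table (adjusted p = 0.28 in Smc3, 0.594 in Npm1 and 0.281 in Double). Fcgr1, the high-affinity IgG receptor of monocytes, stood at 12.9 to 16.1 in WT and 3.29 to 4.12 in Npm1, with no overlap, and overlapped WT in Smc3 (15.3 to 27.1) and Double (11.9 to 18.9). The Npm1 values rest on only 5, 2 and 4 whole reads, against 8, 13 and 10 in WT. Fcgr1 has no adjusted p in Npm1 and was not called in Smc3 (adjusted p = 0.463) or Double (adjusted p = 0.846) in the authors' deposited table. Ciita, the master activator of MHC class II genes, stood at 12.9 to 46.4 in WT and 48.5 to 58.4 in Smc3, and its Double libraries, at 14.3 to 52.3, overlapped WT. It was not called in the authors' deposited table (adjusted p = 0.0856 in Smc3 and 0.682 in Double). Siglec1, a macrophage lectin in the family of Siglech, stood at 5.97 to 36.3 in WT and 2.99 to 3.53 in Double, where it was called lower (adjusted p = 0.031) in the authors' deposited table. Its Double values rest on 6, 4 and 5 whole reads, and the highest WT value is that of WT library 1.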
